A study of Homo sapiens with 66 samples.

Results

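Hypoxia-inducible factor (HIF) binds DNA as a heterodimer of an oxygen-regulated α subunit, HIF-1α or HIF-2α, and HIF-1β (ARNT), a partner that is present whatever the oxygen level. The dimer recognises a short core, ACGTG or GCGTG, within the hypoxia response element (HRE). Most copies of that core in a genome are not bound, and the bound copies differ between cell types. In hepatocytes, regulatory DNA is occupied by factors such as HNF4, FOXA, C/EBP, HNF1 and ONECUT, which maintain the expression of plasma proteins, clotting factors and liver enzymes.

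The regions described here were HIF-1β sites of HepG2, a hepatocellular cancer line, that had no counterpart in the kidney lines of the same series. They were selected on the peak calls themselves. Peaks of both HepG2 HIF-1β libraries that overlapped by at least 1 bp were merged, and a merged site was kept when it overlapped no peak in any of 44 kidney libraries. This left 707 of 2158 HepG2 HIF-1β sites, of which 705 lay on chromosomes 1 to 22, X or Y and were analysed. The other 1451 HepG2 sites on these chromosomes overlapped a kidney peak in at least 1 library and are called kidney-shared below. A peak list records calls, so a site absent from a list was not called there, which is not the same as being unbound.

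HepG2 cells had been kept in 0.5% oxygen for 16 h before chromatin immunoprecipitation and sequencing (ChIP-seq) with antibodies to HIF-1α, HIF-2α and HIF-1β, with 2 libraries per antibody. The kidney libraries came from 2 lines. HKC8, a proximal tubule line, gave 38 libraries, from hypoxia of 0.5% oxygen lasting 6, 16 or 48 h or of 3% lasting 6 h, and these included cells in which HIF-1α (HKC8_HIF1aKO) or HIF-2α (HKC8_HIF2aKO) had been knocked out beside their wild-type control (HKC8_WT). RCC4, a renal carcinoma line without the ubiquitin ligase subunit VHL, in which HIF-α persists in normal oxygen, gave 6 libraries in normoxia. As a mirror image of the HepG2 sites, 3819 of 5085 HIF-1β sites called in both HKC8_WT libraries overlapped no peak of the 6 HepG2 libraries, and these HKC8-only sites are used for comparison.

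Before any value from the HepG2 HIF-α libraries is read, their labels need a remark. In the library labelled HIF-1α replicate 1, 6.73% of peaks lay within 1 kb of a transcription start site (TSS), against 28.7% in the library labelled HIF-1α replicate 2. The order was the opposite for HIF-2α, with 30.6% in the library labelled HIF-2α replicate 1 and 8.08% in the library labelled HIF-2α replicate 2. The library labelled HIF-1α replicate 1 was thus closer to that labelled HIF-2α replicate 2 than to the other library of its own label. The same held for the libraries labelled HIF-1α replicate 2 and HIF-2α replicate 1. Each of the 4 is therefore given by its label and on its own, and no direction is drawn for either subunit.

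Sequences that carry the findings are printed first. They are the GRCh37 plus strand, 5′ to 3′, around the HRE core nearest to the site centre. Capitals mark the core in either orientation (CACGT and CACGC are its reverse complements), and the name is the protein-coding gene with the nearest TSS. The first set shows sites at genes of liver or oxygen biology, to show how short the shared element is within otherwise different sequence.
ARG1, chr6:131897093-131897147, intron of ARG1 and of MED23: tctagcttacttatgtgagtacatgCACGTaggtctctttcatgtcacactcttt
EPO, chr7:100321418-100321472, intergenic: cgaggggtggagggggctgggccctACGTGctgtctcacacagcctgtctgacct
TF, chr3:133461673-133461727, intergenic: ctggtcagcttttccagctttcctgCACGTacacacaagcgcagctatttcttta
SERPINA1, chr14:94862519-94862573, intergenic: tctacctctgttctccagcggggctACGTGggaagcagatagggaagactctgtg
F10, chr13:113793462-113793516, intron of F10: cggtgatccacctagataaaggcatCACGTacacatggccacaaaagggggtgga
FOXA2, chr20:22514874-22514928, intergenic: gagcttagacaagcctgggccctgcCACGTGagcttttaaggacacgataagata

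The second set shows sites among the 10 with the highest HIF-1β rank, to which no gene list applied.
INO80D, chr2:206840344-206840398, intergenic: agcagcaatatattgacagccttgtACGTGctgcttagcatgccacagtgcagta
LRMDA, chr10:77784834-77784888, intron of LRMDA: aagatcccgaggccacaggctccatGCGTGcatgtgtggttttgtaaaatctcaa
DSP, chr6:7561817-7561871, intron of DSP: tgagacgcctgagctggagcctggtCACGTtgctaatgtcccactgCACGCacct

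The third set shows sites in which an HRE core lay close to an HNF4 motif (CAAAGTCCA or CAAAGGTCA), a motif more frequent in kidney-absent than in kidney-shared sites. Both are in capitals.
ID2, chr2:8714226-8714287, intergenic: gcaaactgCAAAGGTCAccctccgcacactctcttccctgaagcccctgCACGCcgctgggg
TTC12, chr11:113159136-113159185, intergenic: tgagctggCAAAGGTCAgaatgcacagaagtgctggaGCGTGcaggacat
LRRC1, chr6:53602713-53602827, intergenic: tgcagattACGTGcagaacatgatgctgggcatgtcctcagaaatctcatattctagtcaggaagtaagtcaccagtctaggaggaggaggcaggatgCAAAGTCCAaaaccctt
TAF1B, chr2:9935421-9935524, intergenic: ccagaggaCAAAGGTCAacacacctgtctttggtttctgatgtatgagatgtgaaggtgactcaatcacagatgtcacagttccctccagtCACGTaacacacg

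The kidney-absent sites lay mostly away from promoters. Of the 705, 121 (17.2%, 95% Clopper-Pearson interval 14.5 to 20.2) had their centre within 1 kb of a protein-coding TSS, against 60.4% (57.8 to 62.9) of kidney-shared sites and 4.74% (4.09 to 5.46) of HKC8-only sites. Intervals here and below cover counting error alone. Sites of 1 list are not replicates of a cell line, so the differences between site classes carry no test. The median distance to a TSS was 15.8 kb for kidney-absent, 0.326 kb for kidney-shared and 31.1 kb for HKC8-only sites. By annotation, 364 kidney-absent centres were intergenic, 262 intronic, 51 in a UTR, 16 in a coding exon and 12 in another exon. Of the 584 sites over 1 kb from a TSS, 289 lay upstream and 295 downstream of the nearest TSS, so that neither side of it was preferred.

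**Figure D1:**
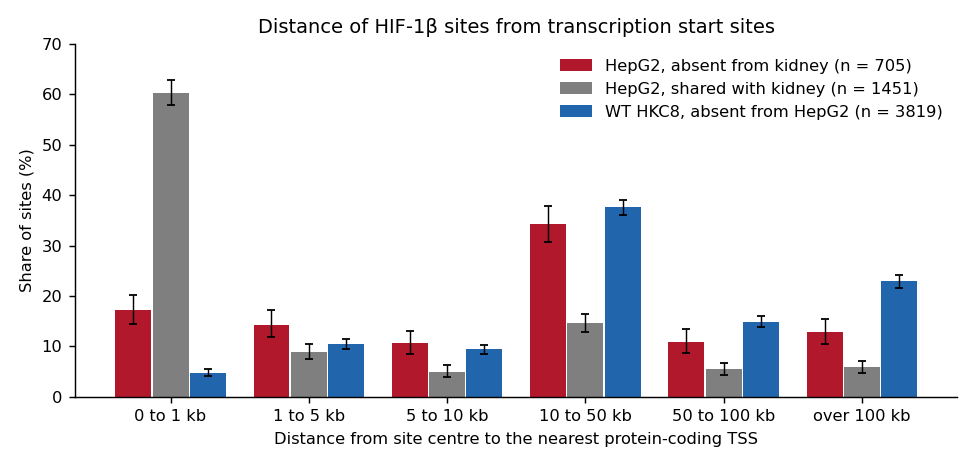
Share of sites (y axis, %) by distance of the site centre from the nearest protein-coding TSS (x axis, bins in kb) for kidney-absent HepG2, kidney-shared HepG2 and HKC8-only HIF-1β sites. Bars are shares with 95% Clopper-Pearson intervals. The nearest bin holds 60.4% of the kidney-shared sites and 17.2% of the kidney-absent sites, and the bin from 10 to 50 kb holds 34.2% of the kidney-absent sites.

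The split was abrupt rather than graded along the number of kidney lists that held a site. Among the 202 HepG2 sites found in just 1 kidney list, 65.8% lay within 1 kb of a TSS. The share was 67.5% for 388 sites found in 2 to 5 lists, 58.2% for 519 sites in 6 to 15 lists and 52.3% for 342 sites in 16 to 44 lists. Sites in a single kidney list therefore had the position of the shared sites, not that of the kidney-absent ones. Base composition moved with position. The median GC content of the 200 bp around the centre was 51% in kidney-absent sites and 63.5% in kidney-shared sites, with medians of 4 and 14 CpG dinucleotides, and its part in the motif results below was not tested beyond the control windows given there.

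At the threshold of the rule, the 5 kidney-absent sites closest to a kidney peak were separated from it by 46 to 118 bp. They lay nearest to PPP2R5C, INHBE, MRPS23, UQCRHL and KLF14. The 5 kidney-shared sites with the smallest overlap with a peak of 1 library overlapped it by 1 to 112 bp, nearest to STC2, FSCB, PPP1R13B, MCM3 and PSD3. Few sites were this close. The median gap to the nearest kidney peak was 23769 bp, and 22 of the 705 sites (3.12%) had a gap under 1 kb.

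Among sites called in both HIF-1β replicates, the presence of an HRE core was about as frequent in the kidney-absent sites as in the kidney-shared ones. A core (ACGTG or GCGTG, both strands) lay within 100 bp of the centre in 494 sites (70.1%, 66.5 to 73.4) and in 73.3% (70.9 to 75.5) of kidney-shared sites, while windows of the same length 2 kb to either side held one in 26.5% and 24.9%. This depended on the call in both replicates. Taking the peaks of HIF-1β replicate 2 alone, without replicate 1, 38.9% of 2273 kidney-absent and 70.8% of 1699 kidney-shared peaks held a core, and taking those of replicate 1 alone, 46.5% of 3657 and 70.7% of 2507. In HKC8-only sites the share was 46.0%, against 21.0% of their own control windows. The letters differed more than the share did. ACGTG without GCGTG was present in 46.7% of kidney-absent, 32.0% of kidney-shared and 24.4% of HKC8-only sites. GCGTG without ACGTG was present in 12.5%, 21.2% and 15.4%. Over 1 kb from a TSS the core was found in 71.1% of 584 kidney-absent and 73.7% of 575 kidney-shared sites. Among the 121 kidney-absent sites within 1 kb of a TSS it was found in 65.3% (56.1 to 73.7), so that the difference by position was within counting error.

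The core was tightly centred in the kidney-absent sites. The median distance from the centre to the nearest core was 45 bp among the 693 sites with a core within 1 kb, close to 48 bp in kidney-shared sites and shorter than 103 bp in HKC8-only sites. Core frequency in these sites was also steady along the rank of the peaks. From the lowest to the highest quintile of HIF-1β rank among all HepG2 sites, 70.9%, 69.5%, 70.4%, 70.5% and 68.1% of the kidney-absent sites held a core. In the kidney-shared sites the shares were 69.5%, 68.6%, 75.5%, 74.0% and 77.2%, so that the classes were furthest apart in the highest quintile.

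**Figure D2:**
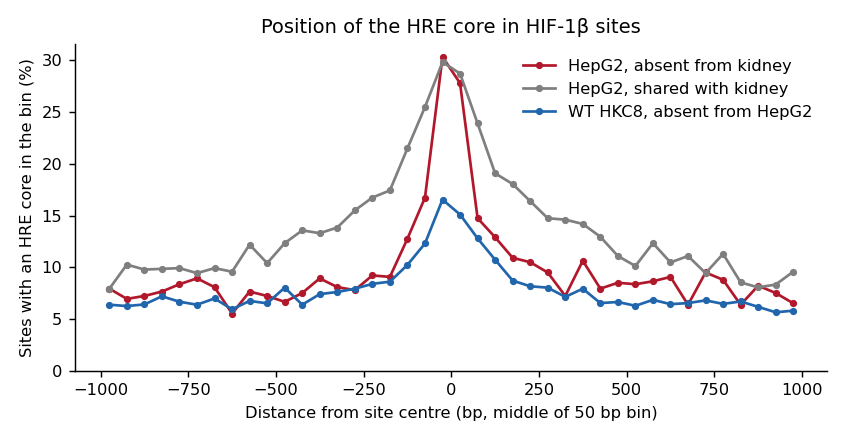
Share of sites with an HRE core in each 50 bp bin (y axis, %) by distance of the bin's middle from the site centre (x axis, bp), for the same 3 site classes. The kidney-absent line peaks at the centre as high as the kidney-shared line and falls off more steeply, while the HKC8-only line peaks lower.

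Motifs of hepatocyte factors separated the classes at lower frequencies. HNF4, a nuclear receptor that sustains hepatocyte gene expression, had its motif in 22 kidney-absent sites (3.12%, 1.97 to 4.69), in 2 kidney-shared sites (0.138%, 0.0167 to 0.497) and in 0.576% of HKC8-only sites. The control windows of the kidney-absent sites held it in 0.567% and those of the kidney-shared sites in 0.586%, so the kidney-shared sites were below their own background. Over 1 kb from a TSS the shares were 3.08% (1.84 to 4.83) for kidney-absent and 0.348% (0.0422 to 1.25) for kidney-shared sites. The HNF4 motif was therefore more frequent in the kidney-absent sites both overall and away from promoters. With replicate 2 or replicate 1 of HIF-1β alone, the kidney-absent share was lower, at 1.28% and 1.67%, and the kidney-shared share was 0.412% and 0.359%.

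Of the 22 sites with an HNF4 motif, 17 (77.3%) also held an HRE core, beside 70.1% of all kidney-absent sites. Over 1 kb from a TSS lay 18 of the 22, beside 584 of the 705. These shares were near those of all kidney-absent sites. The bases between motif and core numbered from -2 (an overlap) to 135, with a median of 37, and thus showed no fixed spacing. All 22 carried a HIF-α peak in at least 1 HepG2 library, beside 95.04% of all kidney-absent sites. The 5 with both motifs and the highest HIF-1β rank lay nearest to TAB3, ID2, LRRC1, TAF1B and TTC12, at percentiles of 97.4, 96.4, 90.6, 79.8 and 74.8, where a percentile is the rank of a peak's score within its own list (100 the highest), averaged over both HIF-1β lists. ID2 encodes an inhibitor of basic helix-loop-helix factors, and its site was 104.7 kb upstream of the nearest TSS.

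FOXA motifs (TGTTTAC or TATTTAC), bound by the pioneer factors of liver development, were present in 8.51% (6.56 to 10.8) of kidney-absent sites, 3.45% (2.57 to 4.52) of kidney-shared and 6.00% of HKC8-only sites. Control windows of the kidney-absent sites held them in 5.89% and those of the kidney-shared sites in 6.00%. Over 1 kb from a TSS the kidney-absent share was 9.42% and the kidney-shared share 5.57%, with overlapping intervals (7.17 to 12.1 and 3.84 to 7.77). As a ratio to the control windows, though not in percentage points, the excess was smaller for FOXA than for HNF4.

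The remaining hepatocyte motifs were within counting error of the control windows, below them, or too rare to compare. C/EBP motifs (TTGCNNAA) were found in 10.9% of kidney-absent sites, which is within counting error of 9.08% in their control windows and of 11.4% in HKC8-only sites. In kidney-shared sites the C/EBP share was lower, at 6.75% (5.52 to 8.17), but over 1 kb from a TSS the kidney-absent and kidney-shared shares were 12.2% and 12.3%. HNF1 motifs were found in 3 sites and in 1 of 1410 control windows. ONECUT motifs (TATTGAT or TATCGAT) were found in 10 sites (1.42%), below the 2.91% of the control windows. Kidney-shared and HKC8-only sites were also below their own control windows, at 0.551% against 2.24% and 1.05% against 2.61%. Together, 162 kidney-absent sites (22.98%) held a motif of at least 1 of these 5 families, against 10.6% of kidney-shared and 17.5% of HKC8-only sites. This joint count was not made in the control windows, so no excess over background is drawn from it. The kidney-shared sites held fewer C/EBP motifs than their own control windows (9.44%), which lowers their joint share. None of the 9 motifs searched was found in 160 kidney-absent sites (22.7%), 22.4% of kidney-shared and 36.4% of HKC8-only sites.

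AP-1, the dimer of FOS and JUN proteins, had its motif (TGACTCA or TGAGTCA) in 6.38% (4.69 to 8.45) of kidney-absent sites, close to 6.48% of kidney-shared sites and well under 17.5% (16.3 to 18.8) of HKC8-only sites. The control windows of these classes held it in 3.48%, 3.51% and 3.74%, so the kidney-absent sites were above their background. Away from promoters the kidney-absent share stayed at 6.68%, while those of the kidney-shared and HKC8-only sites were 12.3% and 17.8%. With HIF-1β replicate 2 or replicate 1 alone, AP-1 motifs were less frequent in kidney-absent than in kidney-shared peaks, at 4.004% against 6.95% and 5.17% against 8.62%. The E-box CACGTG, which holds the HRE core, was present in 9.22%, 10.5% and 6.49% of the classes in the same order. The TNGCGTG motif that ARNT binds with the aryl hydrocarbon receptor was present in 2.98%, 6.96% and 4.06%.

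**Figure D3:**
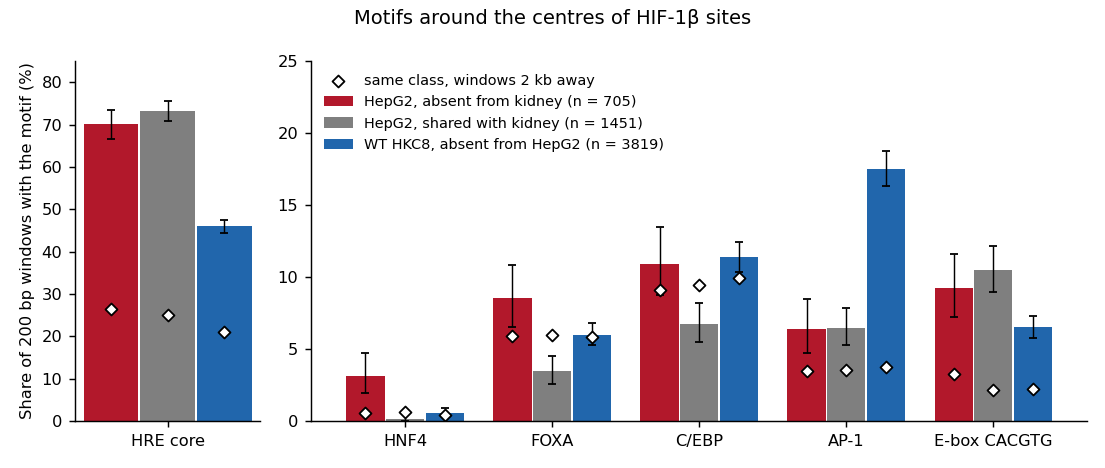
Share of 200 bp windows around site centres that hold a motif (y axis, %; the HRE core has its own scale) for the 3 site classes. Bars carry 95% Clopper-Pearson intervals and diamonds give the share in windows 2 kb to either side. HNF4 is at 3.12% in kidney-absent and 0.138% in kidney-shared sites, and AP-1 at 6.38% in kidney-absent and 17.5% in HKC8-only sites.

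Whether the same motifs set HepG2 libraries apart was tested on whole libraries, taking every peak whatever its site class. For each of the 50 lists the share of peaks with each motif within 100 bp of the peak centre was computed, and the 6 HepG2 lists were compared with the 44 kidney lists (permutation of line labels, 100000 resamples, two-sided, Benjamini-Hochberg over 9 motifs). HNF4 motifs were present in 1.108% ± 0.244 (SD, n = 6) of HepG2 peaks and 0.520% ± 0.210 (n = 44) of kidney peaks. The permutation p was 1e-05, the smallest the resamples can give, and the adjusted p was 9e-05. The permutation treats libraries as exchangeable, though those of a line share cells and sites, so its p does not measure a difference between cell types. The lists include the 2 HepG2 HIF-1β lists and the 44 kidney lists that chose the sites. The test is therefore not independent of the site classes. In 4 of the 6 HepG2 libraries the share was above that of every kidney library.

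FOXA motifs were also more frequent in HepG2 libraries, at 7.54% ± 2.32 against 4.18% ± 1.32 (adjusted permutation p = 9e-05). ONECUT motifs stood at 1.97% ± 0.597 and 0.946% ± 0.375 (adjusted permutation p = 0.00018), a difference seen across whole lists and not in the kidney-absent sites against their control windows. AP-1 motifs were less frequent in HepG2, at 6.38% ± 1.05 against 11.8% ± 4.47 (adjusted permutation p = 0.00891). With fewer libraries that call was lost without replicate 1 and without replicate 2 (adjusted permutation p = 0.118 and 0.105), while the difference of -5.43 points over all libraries stood at -5.17 and -5.51 points. HRE core shares were 47.8% ± 8.78 and 49.1% ± 11.6 (adjusted permutation p = 0.806), and no other motif passed. The 6 HepG2 libraries are of 1 line and share sites, so the test compares these libraries, and line and chromatin preparation cannot be told apart in it. The base composition of the peaks was not taken into account.

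The kidney-absent sites ranked somewhat lower than the kidney-shared ones but were not confined to weak peaks. The median percentile was 69.4 against 76.4, and that of HKC8-only sites within the HKC8_WT lists was 57.3. Of the lowest quintile of all HepG2 sites by rank 47.7% were kidney-absent, followed by 32.7%, 29.0%, 32.3% and 21.8% in the highest quintile. The score itself ranged from 50.46 to 3100 in HIF-1β replicate 1 (median 191.58) and from 50 to 2236 in replicate 2 (median 103.9). Members in the upper ranks were less often promoter sites, with 9.57% of kidney-absent sites within 1 kb of a TSS in the highest quintile and 23.3% in the lowest.

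The highest-ranked kidney-absent site lay 87.5 kb downstream of the nearest TSS, that of INO80D, a subunit of the INO80 chromatin remodelling complex (chr2:206839773-206841122). Its percentile was 99.8 and 99.5 in HIF-1β replicates 1 and 2 and between 99.4 and 99.6 in each HIF-α library. It was thus among the strongest peaks of every HepG2 list. The next 9, in order, lay nearest to ZNF747, KDM4C, FOXA2, LRMDA, F10, NSMF, DSP, ESPN and APOC3, and of these 10 sites ESPN was the only one within 1 kb of a TSS. Of the 10, 6 held an HRE core within 100 bp of the centre and 9 carried a peak in all 4 HIF-α libraries. The exception was KDM4C, a histone demethylase gene, with no peak in the libraries labelled HIF-1α replicate 1 and HIF-2α replicate 2.

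Liver genes were next to a number of these sites. When each site was assigned to the protein-coding gene with the nearest TSS within 100 kb, 615 sites reached 585 of 19794 genes (2.96%). Of 240 genes in 6 lists of hepatocyte genes, 26 (10.8%) had a kidney-absent site. The same lists had 11 genes (4.58%) next to a kidney-shared site, where all genes stood at 6.52%, and 21 (8.75%) next to an HKC8-only site, where all genes stood at 10.5%. These are counts beside the count over all genes, with no test. The lists were drawn up by hand with earlier results of these data known. A surplus of listed genes can therefore reflect how the lists were chosen.

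Transcription factors of the liver had the highest share, at 7 of 28 genes (25%), against 2 next to a kidney-shared and 1 next to an HKC8-only site. They were FOXA2, NR2F2, PROX1, HNF4A, NR0B2, TBX3 and XBP1. NR2F2 also had a kidney-shared site. In HIF-1β replicates 1 and 2, TBX3 was at percentiles of 64.1 and 5.70 and XBP1 at 29.7 and 8.72, both near the floor of replicate 2. FOXA2, a pioneer factor of liver development, had 2 sites 50.3 and 72.2 kb downstream of its nearest TSS. The first ranked at the percentiles 99.0 and 98.6 in HIF-1β replicates 1 and 2 and at 99.2, 98.9, 97.8 and 99.5 in the libraries labelled HIF-1α replicates 1 and 2 and HIF-2α replicates 1 and 2. The second was weak in one replicate, at 69.1 and 13.99, and held no core within 100 bp of the centre.

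PROX1, a homeobox factor of hepatocyte and lymphatic identity, also had 2 sites, 60.9 and 39.5 kb downstream of its nearest TSS, each with 3 HRE cores. The first was at percentiles of 93.7 and 59.5 in the HIF-1β replicates and the second at 75.6 and 70.6. HNF4A, which encodes HNF4α, held a site in its own intron (chr20:43038738-43040710) at 91.9 and 60.8, with the nearest core 771 bp from the centre. NR0B2, the gene of the bile acid feedback repressor SHP, had a site 0.181 kb upstream of its nearest TSS at 62.2 and 13.8. Replicates were close for the first FOXA2 site and differed for HNF4A and NR0B2.

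Among genes of plasma proteins and apolipoproteins, 7 of 54 (12.96%) had a site. Of the same genes 2 had a kidney-shared and 4 an HKC8-only site. The 7 genes were APOC3, AMBP, TF, SERPINA1, AHSG, AGT and APOC1. APOC3 encodes an inhibitor of triglyceride clearance, and its site 2.88 kb upstream ranked at 97.0 and 98.2 in the HIF-1β replicates, with 87.6, 97.6, 94.8 and 91.0 in the HIF-α libraries in the order above. It held an AP-1 motif but no HRE core within 100 bp, the nearest core being 201 bp away. TF, the gene of the iron carrier transferrin, had a site 3.18 kb upstream at 96.3 and 79.8, with 97.8, 97.5, 91.4 and 99.6 in the HIF-α libraries, and its core was 1 bp from the centre. SERPINA1, which encodes α1-antitrypsin, had a site with 2 cores 5.51 kb upstream at 87.8 and 88.0.

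The AMBP gene, which encodes α1-microglobulin and bikunin, had 2 sites 4.04 and 2.68 kb upstream of its nearest TSS, at 96.2 and 95.9 and at 75.4 and 79.0. In the libraries labelled HIF-1α replicate 2 and HIF-2α replicate 2, 1 peak each spanned both sites. Neither held a core within 100 bp of the centre. AHSG, which encodes fetuin-A, had a site at 75.2 and 25.3 with all 4 HIF-α libraries called. APOC1 had a site in a UTR at 55.1 and 41.0 with no HIF-α peak. The sites of this list thus ran from the top of both HIF-1β lists to the lower part of replicate 2.

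Of 39 coagulation and complement genes, 4 (10.3%) had a kidney-absent site, none had a kidney-shared one and 3 (7.69%) had an HKC8-only one. F10, the gene of coagulation factor X, held a site in its intron (chr13:113792928-113794120) at 97.4 and 99.2, with 99.7, 96.2, 98.1 and 99.4 in the HIF-α libraries, and the site had both an HRE core and a FOXA motif. TFPI, the gene of the inhibitor that acts on factor X and tissue factor, held a site in its intron at 95.5 and 89.0, with 98.0, 95.5, 94.7 and 97.8 in the HIF-α libraries. C8A, a complement component, had its site in a coding exon 0.18 kb from the nearest TSS at 93.0 and 90.8, with no peak in the library labelled HIF-1α replicate 1. F2, the prothrombin gene, had a weaker one at 86.1 and 51.9.

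Metabolic lists had similar or lower counts. For bile acid, cholesterol and fatty acid genes the count was 4 of 36 (ELOVL6, BAAT, SLC10A1 and DGAT2), below the 5 genes next to a kidney-shared and the 6 next to an HKC8-only site. For glucose, amino acid and urea genes it was 3 of 40 (ARG1, SLC25A15 and SLC2A2), with 2 next to a kidney-shared and 3 next to an HKC8-only site. ARG1, the last enzyme of the urea cycle, held a site in its intron 2.82 kb from the nearest TSS at 89.1 and 80.9. SLC2A2, the hepatocyte glucose transporter GLUT2, had a weak site at 40.3 and 22.2. Of 43 drug metabolism genes, AKR1D1, a bile acid reductase, was the one with a site, which is a share (2.33%) near that of all genes, and 4 genes of that list had an HKC8-only site.

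**Figure D4:**
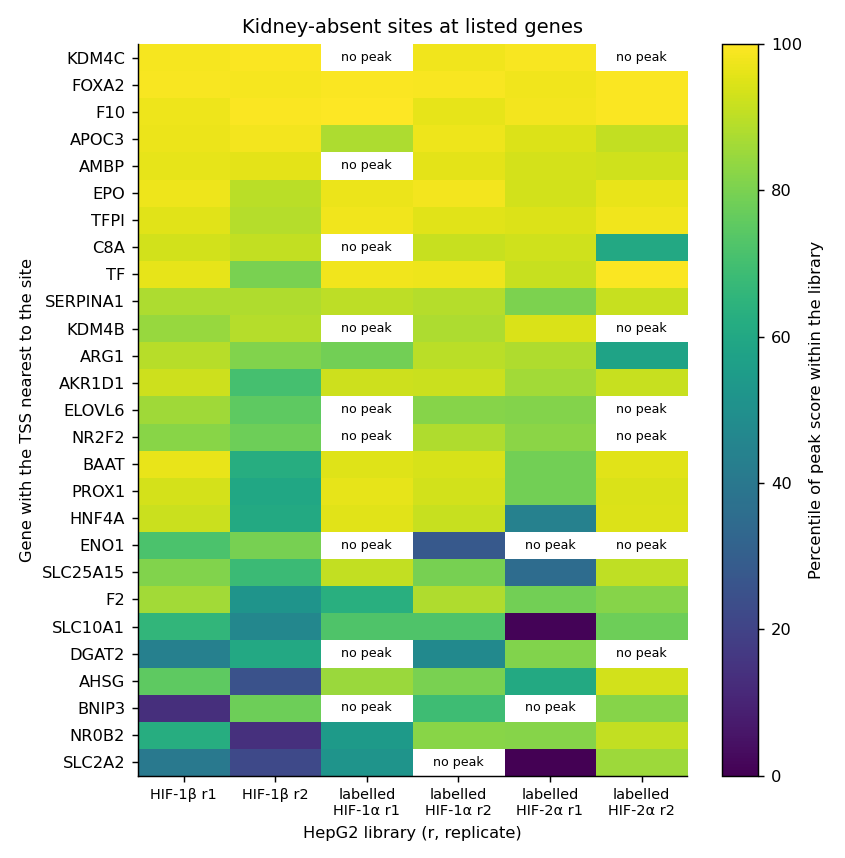
Percentile of the peak score within each of the 6 HepG2 libraries (colour, 0 to 100) for the best-ranked kidney-absent site of up to 5 genes per list (rows, ordered by the mean of both HIF-1β percentiles), for the hepatocyte and the common hypoxia lists. White cells had no peak. FOXA2, F10, APOC3, EPO, TFPI, TF and SERPINA1 are at 79.8 or above in every library. KDM4C, KDM4B, ELOVL6, NR2F2, ENO1 and DGAT2 have no peak in the libraries labelled HIF-1α replicate 1 and HIF-2α replicate 2.

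Genes induced by hypoxia in many cell types lay mostly next to kidney-shared sites. Of 60 such genes, 56 (93.3%) had a kidney-shared site and 6 (10.0%) a kidney-absent one, and of those 6 (KDM4C, EPO, KDM4B, ENO1, BNIP3 and LOXL2) EPO was the one without a kidney-shared site. EPO encodes erythropoietin, which liver and kidney cells make in low oxygen. Its site, chr7:100320846-100322061, was intergenic, 3.36 kb downstream of the nearest TSS, with the nearest kidney peak 11507 bp away. Percentiles were 97.6 and 89.7 in the HIF-1β replicates and 97.1, 98.1, 93.1 and 96.5 in the HIF-α libraries in the order above. All 6 libraries thus called it in their upper ranks, and its core, printed above, was 9 bp from the centre.

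Several sites next to 1 gene were uncommon. Of the 585 genes 28 had at least 2 sites and 2 had 3, namely EGFR, the epidermal growth factor receptor, and NEDD4L, a ubiquitin ligase. The EGFR sites lay in its intron, 13.9, 15.3 and 17.5 kb downstream of the nearest annotated TSS, which can be an alternative start within the gene. Their mean HIF-1β percentiles were 90.1, 44.4 and 62.2 in that order. The 3 NEDD4L sites were at 85.4, 78.7 and 68.8. Of the 585 genes, 68 also had a kidney-shared site.

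HIF-α peaks accompanied nearly all kidney-absent sites. At least 1 of the 4 HepG2 HIF-α libraries had a peak at 670 of them (95.04%, 93.2 to 96.5). The share was higher in kidney-shared sites, at 98.9% (98.2 to 99.4), and was 97.6% of all HepG2 HIF-1β sites. When the kidney-absent sites were moved by 10 kb, 1.28% to 2.41% overlapped a peak of a given library. All 4 libraries had a peak at 285 sites (40.4%, 36.8 to 44.2), beside 30.5% of all HepG2 sites and 25.7% of kidney-shared ones. No HIF-α peak was found at 35 kidney-absent sites (4.96%), against 1.10% of kidney-shared sites. These 35 were weak in HIF-1β, with a median percentile of 28.9, and 40% of them lay within 1 kb of a TSS.

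The libraries moved in pairs that crossed their labels. The library labelled HIF-1α replicate 1 had a peak at 48.5% (44.8 to 52.3) of kidney-absent and 29.6% of kidney-shared sites, beside 35.8% of all HepG2 sites, and the library labelled HIF-2α replicate 2 at 61.7% and 38.5%, beside 46.1%. In the library labelled HIF-1α replicate 2 the shares were 91.9% and 96.9%, beside 95.3%, and in that labelled HIF-2α replicate 1 they were 77.4% and 89.5%, beside 85.6%. The first pair thus called more of the kidney-absent sites and the second pair fewer. The mean difference over the 4 libraries was 6.25 ± 17.4 points (SD, n = 4), with an exact sign-flip permutation p of 0.5 where the smallest that 4 libraries allow is 0.13.

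Since the site classes differ in position, the shares were also compared on each side of 1 kb from a TSS, a division chosen after the data were seen. Over 1 kb from a TSS, the differences between kidney-absent and kidney-shared sites were 4.55, -3.90, -9.40 and 6.76 points in the order of labelled HIF-1α replicates 1 and 2 and labelled HIF-2α replicates 1 and 2, with a mean of -0.50 (exact permutation p = 1, n = 4). Within 1 kb of a TSS they were 7.07, -11.6, -17.9 and 6.35 points, with a mean of -4.01 (exact permutation p = 0.625, n = 4). The sign of each library stayed, the size fell for the first pair, and the sign of the mean turned in both sets.

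The same pairing appeared among the kidney-absent sites themselves. Of the sites called by the library labelled HIF-1α replicate 1 or that labelled HIF-2α replicate 2, 71.5% were called by both, and for the other crossed pair the figure was 79.5%. Pairs with the same label shared 51.8% (HIF-1α) and 58.7% (HIF-2α). The most frequent pattern after a call in all 4 libraries was a call in just the libraries labelled HIF-1α replicate 2 and HIF-2α replicate 1, at 155 kidney-absent (21.99%) and 712 kidney-shared sites (49.1%). Within 1 kb of a TSS the 121 kidney-absent sites were called by the 4 libraries at 23.97%, 85.1%, 72.7% and 29.8% in the order above, and further away at 53.6%, 93.3%, 78.4% and 68.3%.

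**Figure D5:**
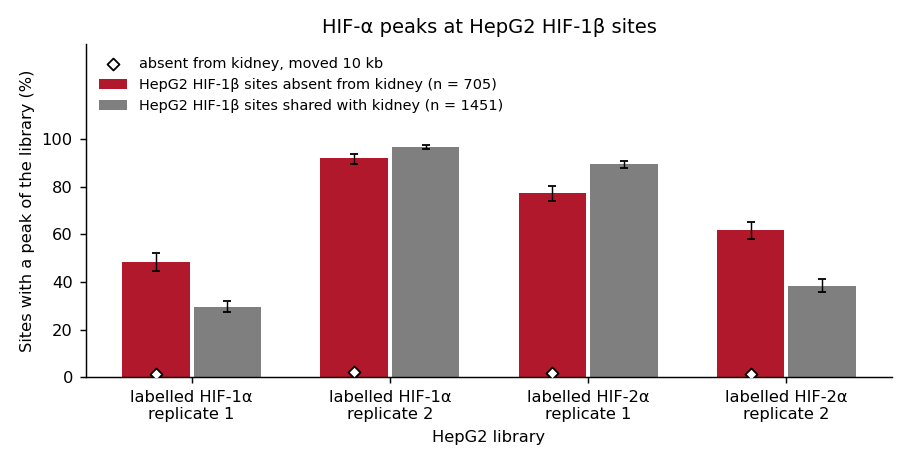
Share of HepG2 HIF-1β sites with a peak (y axis, %) in each of the 4 HepG2 HIF-α libraries, named by their labels (x axis), for kidney-absent and kidney-shared sites. Bars carry 95% Clopper-Pearson intervals, and diamonds give the share for kidney-absent sites moved by 10 kb. The kidney-absent bar is the higher one for labelled HIF-1α replicate 1 and labelled HIF-2α replicate 2 and the lower one for the other 2 libraries.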

How the data were processed

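ChIP-seq libraries were processed by the authors one by one, per the study's methods and the submitters' processing notes, with Trim Galore 0.3.3, BWA 0.7.5a-r405 to GRCh37 (hg19), SAMtools 0.1.19, bedtools 2.17.0 (black-listed regions), Picard 1.106 and MACS in control mode. The deposited lists hold each MACS peak with its score, read here as the negative decimal logarithm of the p-value multiplied by 10, from 50 upwards. They are not the study's narrower set of peaks found by a second caller too. Scores were used as percentile ranks within a list. Read depth is unknown from these lists, and no interval uses it. Replicates are independent ChIP-seq experiments per the study, the labels give a replicate number alone, and the number of libraries limits the precision. Sites were merged and overlapped by at least 1 bp, with Python 3.11.15, SciPy 1.17.1 and pysam 0.24.0. TSS and annotation were those of GENCODE 44 lifted to GRCh37, and TSS means those of protein-coding transcripts. Distances are to the nearest TSS of any such transcript, which can be an alternative start within a gene. Motifs were exact letters on both strands within 100 bp of the centre, with control windows 2 kb to either side. HNF1 was searched as its palindromic consensus. The permutation and sign-flip tests were checked on simulated data. Genes and sites named in the text were the 10 best-ranked sites, up to 5 genes per list by rank (the hepatocyte counts name all members), the 5 best-ranked sites with an HRE core and an HNF4 motif, and the 5 sites on each side of the rule's threshold. EGFR and NEDD4L were named after their values were seen. Gene lists were drawn up by hand from general knowledge. Members, gene lists and motifs were chosen with earlier results of these data known. Some sites and sequences are not reported here.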

Additional observations from a re-analysis of the deposited data

How the results depend on the processing

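The absence of read depth, the calling threshold of each list and the use of 1 liver-derived line limit these results: a kidney library with few peaks (the lists ran from 237 to 8279) can miss sites, and a call lost in 1 HepG2 replicate removes a site. The number of kidney-absent sites was 334 of 1229 with HepG2 scores of at least 100, and ran from 2273 to 3657 when 1 HepG2 HIF-1β list was used alone. In those single lists the HRE core share ran from 38.9% to 46.5%, the HNF4 share from 1.28% to 1.67%, the FOXA share from 7.13% to 7.82%, the AP-1 share from 4.004% to 5.17% and the share within 1 kb of a TSS from 10.6% to 15.6%. In the kidney-shared sites of those lists the same measures were 70.7% to 70.8%, 0.359% to 0.412%, 3.12% to 4.67%, 6.95% to 8.62% and 55.0% to 58.4%, so that the HRE core and AP-1 shares were no longer close between the classes. Within 50 bp of the centre the HRE core was found in 51.5%, FOXA in 3.69% and AP-1 in 3.12% of kidney-absent sites. Over the whole site these were 96.6%, 32.5% and 20.7%, and HNF4 was at 8.37% (kidney-shared 99.3%, 25.4%, 24.7% and 2.83%). TGTTTAC alone was found in 4.40%. Within 5 kb of a TSS lay 31.5% of sites, and within 1 kb of a TSS of any transcript 25.7%. Hepatocyte list genes numbered 48 when any TSS within 100 kb counted (20% of the lists, 10.2% of all genes) and 32 to 62 with 1 HIF-1β list (13.3% of the lists and 6.94% of all genes without replicate 1, 25.8% and 11.5% without replicate 2). The mean HIF-α difference was -0.50 points over 1 kb from a TSS and -4.01 points within it, a division chosen after the data were seen, and ran from 3.399 to 9.10 points when 1 replicate number was left out. In the test across libraries, the upper 50% of each list gave HepG2 minus kidney differences of 4.81 points for the HRE core, 0.25 points for the E-box and 2.23 points for C/EBP (adjusted permutation p = 0.457, 0.783 and 0.0356). Without the 24 severity and duration libraries the HNF1 difference was -0.0032 points. Leaving out replicate numbers 1 and 2 in turn gave -5.51 to -5.17 points for AP-1 and -3.29 to 0.47 points for the HRE core. With permutation within replicate number (a replicate block) the differences are by construction the same, 0.59 points for HNF4, 3.36 for FOXA, 1.02 for ONECUT and -5.43 for AP-1, with adjusted permutation p of 9e-05, 9e-05, 0.00015 and 0.0108, and no call changed. The numbers do not mark shared cultures per the labels, and RCC4 HIF-1β numbers are 2 and 3, so they are not a pairing. The number of kidney-absent sites ran from 683 to 931 under the other settings for overlap and kidney lists. The mean HIF-α difference ran from 2.82 to 12.4 points under the settings for overlap, score and rank. With so few HIF-α libraries the sign-flip test cannot reach the threshold under any setting, so no conclusion is drawn from it.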
